A study of Homo sapiens with 2 samples.

Results

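Expression of the proteasome genes was followed in HuES53 and HuES64, a pair of diploid lines of human embryonic stem cells. The genes were found by their symbols: PSM, a letter from A to G and a number, leaving out antisense and other hyphenated symbols and 1 further symbol that is not reported here. This gave 48 of the 25436 gene symbols in the deposited table. The letters stand for subunits of the 20S core (PSMA and PSMB), ATPases (PSMC) and other proteins (PSMD) of the 19S cap, activators (PSME), an inhibitor (PSMF1) and assembly chaperones (PSMG). One of the 48, PSMC3IP, matched by its letters only: its protein acts in meiotic recombination and is no part of the proteasome. It is kept in the counts and stood at 13.6 FPKM in HuES53 and at 14.4 FPKM in HuES64, a log2 difference of -0.07.

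The proteasome degrades proteins that carry ubiquitin chains. Its 20S core is a barrel of stacked rings, with alpha subunits outside and beta subunits inside, and some of the beta subunits carry the cutting sites. The 19S cap binds ubiquitin, removes it, unfolds the protein with a ring of ATPases and feeds it into the core. Pluripotent cells are known for high proteasome activity, and PSMD11 has been linked to it in human embryonic stem cells. When the proteasome is inhibited, the transcription factor NFE2L1 is known to raise the genes of its subunits together.

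Per the labels, HuES53 and HuES64 are diploid embryonic stem cell lines, undifferentiated and below passage 20. They belong to a series on haploid human embryonic stem cells, in which diploid lines serve for comparison. Polyadenylated RNA of each line was sequenced in 1 library, so there is no replicate error and no test, and every difference describes these 2 libraries. Values are FPKM, fragments scaled by transcript length and by mapped fragments, so levels of different genes can be set side by side. Differences are HuES53 minus HuES64 in log2(FPKM + 1), taken for the 13790 genes whose mean over the lines was 1 FPKM or more. The pseudocount of 1 FPKM makes folds slightly smaller than plain ratios. All 8 pluripotency markers looked at, POU5F1, NANOG and SOX2 among them, were present, at 42.1 to 1053 FPKM in HuES53 and 24.9 to 1381 FPKM in HuES64, while none of 5 neuroectoderm markers reached a mean of 1 FPKM. Of 8 fibroblast markers 6 did, with a summed level of 454 FPKM in HuES53 and 457 FPKM in HuES64, from which COL3A1 stood out at 3.08 and 8.00 FPKM (-1.14). All 5 endoderm markers did as well, at sums of 47.3 FPKM in HuES53 and 35.7 FPKM in HuES64, with AFP at 7.25 and 1.53 FPKM (1.71). Among 6 immune markers CD74 (33.1 and 31.7 FPKM) and LCP1 (12.8 and 7.23 FPKM) did, with CD3E listed at 0 in both lines and PTPRC at 0.0458 FPKM in HuES53 (listed at 0 in HuES64). The part of other cell types in the results below was not tested.

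Depth could be read only roughly from the steps of low values. Among low values of olfactory receptor genes, a whole fragment number was met to 3% by 17 of 20 in HuES53 and by 9 of 11 in HuES64, which put 1 FPKM over 1 kb at about 18.1 fragments in HuES53 and 14.8 in HuES64. These are best fits on few genes, with an assumed fragment length of 200 bases. On that estimate the lowest proteasome gene above 1 FPKM, PSMC3IP, rested on about 344 fragments in HuES53 and 297 in HuES64. Counting error alone would then give standard errors of 0.024 (PSMB4) to 0.11 (PSMC3IP) on the log2 difference of a single gene, and it covers nothing but counting.

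Most of these genes were expressed at moderate to high levels, and they kept nearly the same order in the lines. A mean of at least 1 FPKM was reached by 46 of the 48, from 13.6 to 405 FPKM in HuES53 and from 14.4 to 546 FPKM in HuES64. The exceptions were PSMB11, which encodes a beta subunit of thymic epithelium and was listed at 0 in both lines, and PSMA8, which encodes an alpha subunit of the testis, at 0.143 FPKM in HuES53 (about 4.26 fragments) and listed at 0 in HuES64. Spearman's rho between the levels of the 46 in the lines was 0.96, given as a description across genes that share both libraries. Their share of all FPKM was 0.957% in HuES53 and 0.931% in HuES64.

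**Figure D1:**
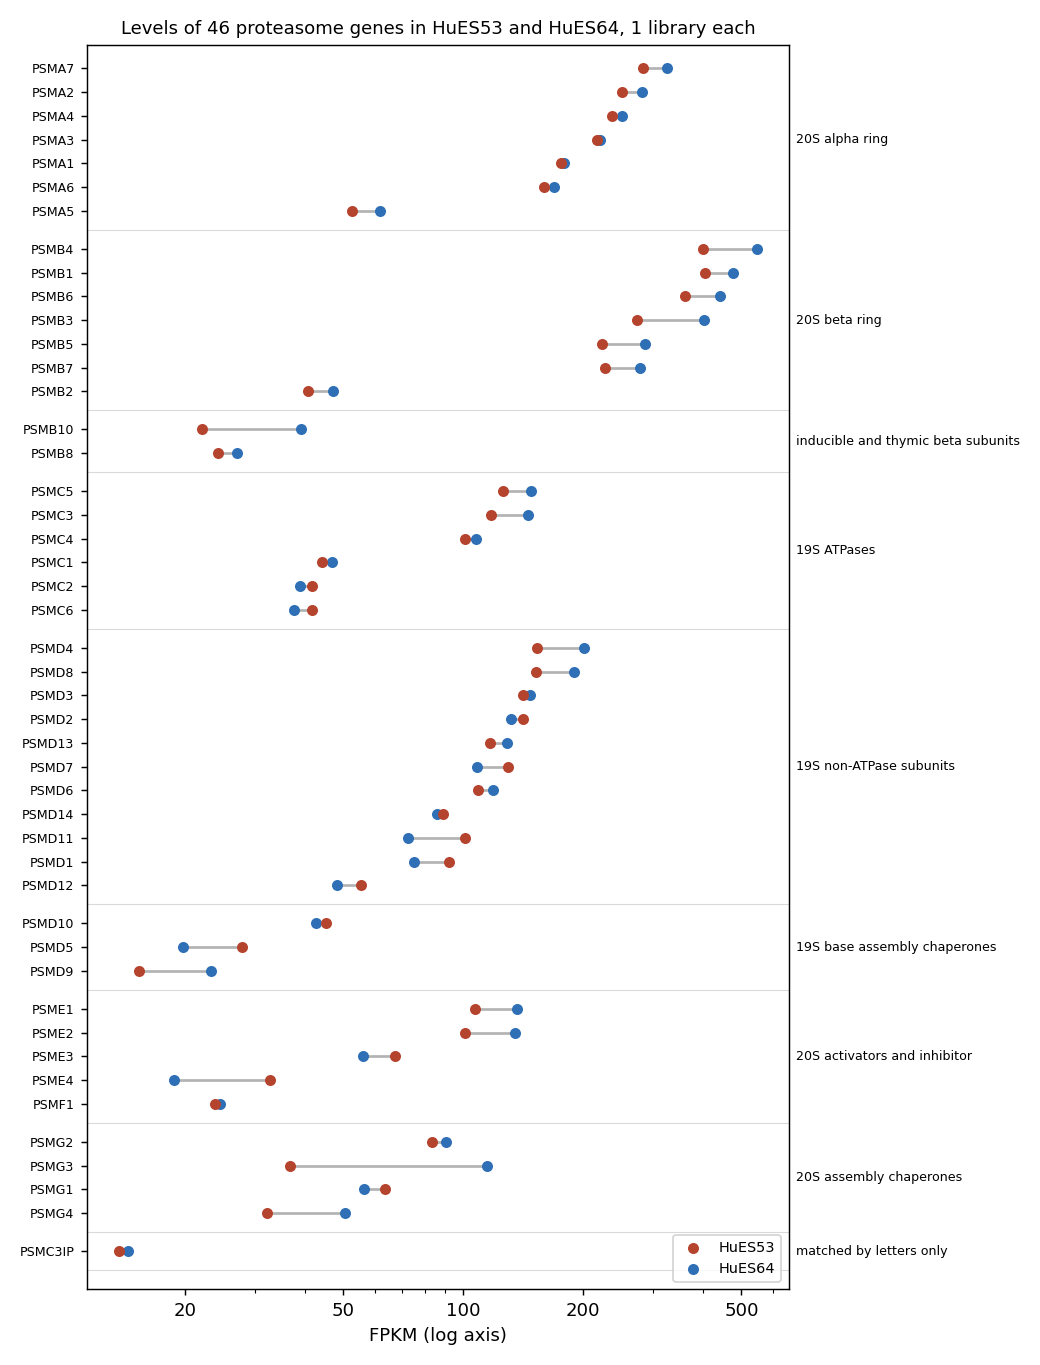
FPKM of the 46 proteasome genes above 1 FPKM in HuES53 (red) and HuES64 (blue), on a log axis, grouped by role, with 1 library per line and a grey bar joining the values of a gene. The symbols nearly coincide for most genes, and PSMG3 (36.7 and 115 FPKM) has the widest gap.

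Differences were small. Among the 46 genes 1, the assembly chaperone gene PSMG3, differed by at least 2-fold, which is 2.17% of them, against 3.86% of all genes tested. At 1.5-fold, a size chosen after the values were seen, there were 4 (PSMG3, PSMB10, PSMG4 and PSME4), or 8.7%, against 17.1% of all genes. The median difference over the 46 was -0.12, and that of all genes was 0.03. Lower in HuES53 were 33 of the 46 (71.7%), against 47.5% of all genes tested. Highly expressed genes as a whole leaned the same way: of all genes at a mean of 50 FPKM or more, 68.2% were lower in HuES53 with a median of -0.16, and of the 33 proteasome genes at that level 25 (75.8%) were, with a median of -0.14. The direction also depended on the scaling. Dividing by the FPKM sum of each line (601128 in HuES53 and 713421 in HuES64), as TPM does, moved the median of all genes by 0.23, to 0.25, and that of the 46 to 0.12, with 14 of 46 lower in HuES53, against 28.0% of all genes. At 50 FPKM or more 11 of 33 proteasome genes were lower with that scaling, against 871 of all 2115 such genes. Relative to the median of all genes, the 46 stood at -0.15 with the deposited values and at -0.13 with TPM scaling. Below it lay 33 of 46 both ways, which the scaling could hardly change, since it adds a like amount to every gene.

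Every gene of the alpha ring was lower in HuES53 with the deposited values (none of 7 with TPM scaling), by small amounts. Over all genes the shares lower were 47.5% as deposited and 28.0% with TPM scaling. For genes at 50 FPKM or more it was 68.2% as deposited, and with TPM scaling 871 of 2115 such genes were lower. The alpha subunits form the outer rings and the gate of the core. PSMA7, the highest, stood at 283 FPKM in HuES53 and at 324 in HuES64, a difference of -0.19. PSMA5, the lowest of the 7, stood at 52.6 and 61.9 FPKM (-0.23). The other 5 ran from 160 to 251 FPKM in HuES53 and from 169 to 281 in HuES64. PSMA1 (176 and 179 FPKM) and PSMA3 (216 and 220 FPKM) were nearly level at a difference of -0.02 each, within the counting error estimated above, and PSMA4 (236 and 251 FPKM) and PSMA6 (160 and 169 FPKM) differed by -0.09 and -0.08. PSMA2 (251 and 281 FPKM) was at -0.17. The median of the ring was -0.09, which is -0.11 relative to all genes. With the trend of GC content and length removed by the median transcript it was -0.11, with 7 of 7 lower, against 44.5% of all genes. By the longest transcript it was 0.09, with 3 of 7 lower, against 43.9% of all genes.

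The constitutive beta ring differed more. All 7 of its genes were lower in HuES53, against 47.5% of all genes (5 of 7 with TPM scaling, against 28.0%). Of all genes at 50 FPKM or more 68.2% were lower as deposited, and 871 of 2115 with TPM scaling. The median of the ring was -0.29, or -0.32 relative to all genes and -0.30 relative to them with TPM scaling. With a trend of GC content and length removed, as described further on, it was -0.24 by the median transcript of each gene, with 7 of 7 lower in HuES53, and -0.02 by the longest, with 4 of 7 lower. Of all genes at 50 FPKM or more, 1140 of 1920 were lower by the median transcript and 934 by the longest. The catalytic genes were PSMB5, of the chymotrypsin-like site, at 223 FPKM in HuES53 and at 287 in HuES64 (-0.36), PSMB6, of the caspase-like site, at 360 and 441 FPKM (-0.29), and PSMB7, of the trypsin-like site, at 227 and 278 FPKM (-0.29). These 3 differed by nearly the same amount. Among the subunits without a cutting site, PSMB3 was farthest apart, at 273 and 402 FPKM (1.47-fold, -0.56), followed by PSMB4 at 400 and 546 FPKM (-0.45). PSMB1 stood at 405 and 475 FPKM (-0.23). PSMB2 was the lowest of the ring, at 40.7 and 47.1 FPKM (-0.21). Each core holds every alpha and beta subunit in equal number, yet the levels of the 14 genes spanned 9.95-fold in HuES53 and 11.6-fold in HuES64, between PSMB2 and the highest (PSMB1 in HuES53, PSMB4 in HuES64). The coefficient of variation over the 14 was 46.5% in HuES53 and 51.9% in HuES64. PSMB2 and PSMA5, the lowest of the 14, also have the longest GENCODE transcripts among them. Their lengths were 3459 and 2616.5 bases, against a median of 889.5 over the 14. FPKM divides by transcript length, and the part of length in this span was not tested.

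**Figure D2:**
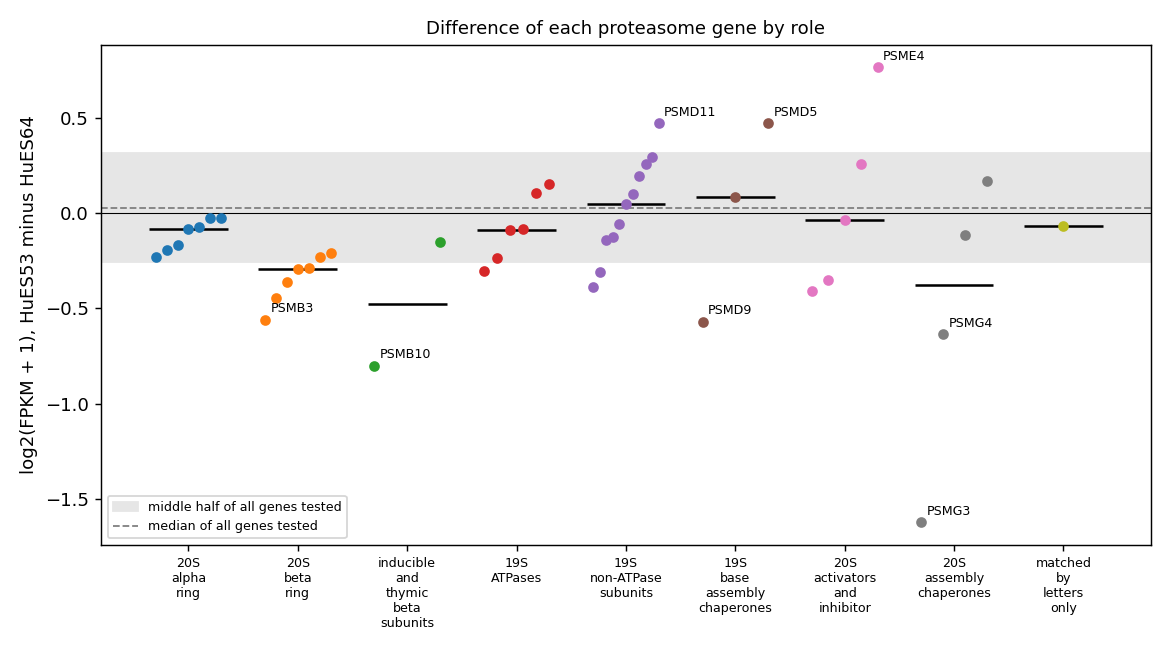
Difference in log2(FPKM + 1), HuES53 minus HuES64, of the 46 proteasome genes by role, with a black bar at the median of each role, a dashed line at the median of all genes tested (0.03) and a grey band over the middle of all genes, between their quartiles. All 14 alpha and beta ring genes lie below 0 (5 of 14 with TPM scaling), the 19S genes lie on both sides, and PSMG3 stands at -1.62.

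Inducible beta subunits replace catalytic ones after interferon, and their levels were low in both lines. PSMB8, which takes the place of PSMB5, stood at 24.2 FPKM in HuES53 and at 27.0 in HuES64 (-0.15, and 0.09 with TPM scaling). PSMB10, which takes the place of PSMB7, stood at 22.1 and 39.2 FPKM (1.74-fold, -0.80, and -0.57 with TPM scaling), and 3.42% of all genes had a lower difference. With a trend of GC content and length removed, as described further on, PSMB10 (GC content 60.6%) was at -0.44 by the median transcript of each gene and at -0.26 by the longest. PSMB8 made up 9.80% of the summed level of PSMB8 and PSMB5 in HuES53 and 8.61% in HuES64. PSMB10 made up 8.86% of the sum of PSMB10 and PSMB7 in HuES53 and 12.4% in HuES64. The share of the inducible gene was thus higher in HuES53 for the first pair and lower for the second, and neither share depends on scaling between the lines. The shares do move with the trend of GC content and length: with it removed by the median transcript, PSMB10 was at -0.44 beside -0.24 for PSMB7 (-0.26 beside 0.015 by the longest), against -0.80 and -0.29 as deposited.

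The promoters of PSMB8 and PSMB10, and of the interferon-inducible activator genes PSME1 and PSME2, are shown because they hold the same 10 letters. The windows run from 250 bases before to 50 after the RefSeq start in GRCh38.p14, read 5′ to 3′ along the gene, and capitals mark GAAAGCGAAA on either strand, a form of the motif of interferon regulatory factors:
PSMB8, chr6:32843998-32844297, minus strand: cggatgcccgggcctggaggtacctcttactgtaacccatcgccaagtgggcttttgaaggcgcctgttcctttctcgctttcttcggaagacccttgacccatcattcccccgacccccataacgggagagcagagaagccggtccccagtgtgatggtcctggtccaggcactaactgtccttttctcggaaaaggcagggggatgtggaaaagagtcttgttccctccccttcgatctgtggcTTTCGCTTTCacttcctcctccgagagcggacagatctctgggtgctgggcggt
PSMB10, chr16:67936801-67937100, minus strand: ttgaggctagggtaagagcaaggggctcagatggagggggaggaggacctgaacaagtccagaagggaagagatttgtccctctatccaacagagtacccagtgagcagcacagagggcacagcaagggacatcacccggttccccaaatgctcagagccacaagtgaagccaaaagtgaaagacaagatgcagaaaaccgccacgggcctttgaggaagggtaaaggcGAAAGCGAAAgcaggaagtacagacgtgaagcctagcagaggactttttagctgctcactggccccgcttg
PSME1, chr14:24135944-24136243, plus strand: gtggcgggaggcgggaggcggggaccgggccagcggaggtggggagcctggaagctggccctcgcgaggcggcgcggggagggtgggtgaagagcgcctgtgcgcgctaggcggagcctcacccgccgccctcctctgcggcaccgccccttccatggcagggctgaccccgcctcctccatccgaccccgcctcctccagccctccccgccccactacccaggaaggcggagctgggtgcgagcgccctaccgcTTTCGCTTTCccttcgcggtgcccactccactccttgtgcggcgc
PSME2, chr14:24146561-24146860, minus strand: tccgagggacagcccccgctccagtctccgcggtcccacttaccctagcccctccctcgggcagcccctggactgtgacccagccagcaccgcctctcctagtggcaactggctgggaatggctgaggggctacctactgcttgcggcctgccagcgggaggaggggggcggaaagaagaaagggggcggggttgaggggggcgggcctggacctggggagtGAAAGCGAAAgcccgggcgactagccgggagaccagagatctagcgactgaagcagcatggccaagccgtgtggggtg
The motif itself, a pair of GAAA letters with any 2 bases between them, was found in 7 of the 42 members that had a promoter in the table, which is 16.7% of them, against 3.70% of genes tested. The 10 letters in capitals were read from the matches of the 4 genes shown, so these 4 hold them by choice. Looked for after these matches had been seen, the letters were in 5 of the 42 (11.9%), with PSMG4 as the fifth. Of genes tested 0.226% held them, but the choice fixed 4 of the 5, so the shares cannot be compared. In HuES53 minus HuES64 these 5 stood at -0.15 (PSMB8), -0.80 (PSMB10), -0.35 (PSME1), -0.41 (PSME2) and -0.64 (PSMG4), and all but PSMB8 were below 0 with TPM scaling as well. The match is of letters only and says nothing about binding.

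Other genes of antigen processing and interferon response, from a list of 14 that includes those 4 proteasome genes, were mostly low. Of 12 members above 1 FPKM, 8 were lower in HuES53, against 47.5% of all genes, and 4 with TPM scaling, against 28.0%. The median was -0.16, and 4 of the 8 were the proteasome genes themselves. TAP2, a subunit of the peptide transporter, stood at 8.25 FPKM in HuES53 and at 4.09 FPKM in HuES64, and its difference of 0.86 was opposite to that of PSMB10. ERAP1, a peptidase that trims peptides, stood at 5.13 and 3.41 FPKM (0.48). B2M, the light chain of class I molecules, stood at 133 and 150 FPKM (-0.17). ERAP1, B2M, PSMB8 and PSME1 overlap other genes in the table, and fragments of overlapping genes cannot be told apart there.

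The ATPases of the 19S base lay on both sides of 0, with PSMC3 and PSMC5 the farthest apart in the deposited values. PSMC5 stood at 126 FPKM in HuES53 and at 148 in HuES64 (-0.24), PSMC3 at 117 and 145 (-0.31) and PSMC4 at 101 and 108 (-0.09). The other 3 were less expressed, with PSMC1 at 44.1 and 46.9 FPKM (-0.09), PSMC2 at 41.8 and 38.8 (0.10) and PSMC6 at 41.8 and 37.5 (0.15). Thus 4 of 6 were lower in HuES53, against 47.5% of all genes (1 of 6 with TPM scaling, against 28.0%). The median was -0.09. With TPM scaling PSMC3 was at -0.06 and PSMC5 at 0.01. With the trend removed by the median transcript PSMC3 was at -0.04, PSMC5 at -0.10 and PSMC4 at 0.14. By the longest these genes were at 0.04, -0.001 and 0.26, and 3 of 6 ATPase genes were lower either way. These 6 proteins form a single ring, in which each occurs once, and their genes fell into 3 with higher levels and 3 with lower levels in both lines.

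The remaining 19S subunits lay on both sides of 0. Of 11 genes 5 were lower in HuES53, against 47.5% of all genes (2 with TPM scaling, against 28.0%). The median was 0.05, close to that of all genes. PSMD11, a subunit that clamps the cap to the core, stood at 101 FPKM in HuES53 and at 72.6 in HuES64 (1.39-fold, 0.47), the highest difference of the cap. PSMD1, the large scaffold of the base, stood at 92.3 and 75.2 FPKM (0.29), and PSMD7, the partner of the deubiquitinase, at 129 and 108 (0.26). That deubiquitinase, PSMD14, was level at 88.9 and 85.9 FPKM (0.05). PSMD4, a ubiquitin receptor, went the other way, at 154 and 201 FPKM (-0.39), as did the lid gene PSMD8 at 153 and 190 (-0.31). With TPM scaling they were at -0.14 and -0.06. With the trend removed PSMD4 was at -0.25 by the median transcript and -0.04 by the longest, and PSMD8 at -0.06 and, in the other direction, 0.05. In the same order PSMD11 was at 0.49 and 0.30, PSMD1 at 0.09 and 0.12, and PSMD7 at 0.24 and 0.32. PSMD12, at 0.19 as deposited, was at -0.17 and -0.12. PSMD2, a further scaffold of the base, and the lid genes PSMD3, PSMD6, PSMD12 and PSMD13 had differences between -0.14 and 0.19, with levels of 55.2 to 142 FPKM in HuES53 and 48.2 to 147 in HuES64. PSMD1, PSMD3, PSMD6 and PSMD7 overlap other genes in the table.

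Chaperones that help assemble the 19S base differed among themselves. PSMD5 stood at 27.7 FPKM in HuES53 and at 19.7 in HuES64 (1.39-fold, 0.47), PSMD9 at 15.3 and 23.2 (1.48-fold, -0.57) and PSMD10, also known as gankyrin, at 45.1 and 42.5 (0.08). PSMD5 and PSMD9 kept opposite signs with TPM scaling (0.72 and -0.34). Both are among the lowest of the 46 genes, and their estimated counting errors were 0.10 and 0.098 on the log2 scale.

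Among the activators, which open the core without the 19S cap, the genes of the cytoplasmic forms were lower in HuES53 and those of the nuclear forms higher, with the deposited values and with TPM scaling. PSME1 and PSME2 encode the subunits of the ring known as PA28 alpha and beta, and stood at 107 and 101 FPKM in HuES53, and at 137 and 135 FPKM in HuES64. Their differences were -0.35 and -0.41 (-0.11 and -0.16 with TPM scaling). With the trend removed they were -0.19 and -0.29 by the median transcript and -0.005 and -0.17 by the longest. The genes lie 4397 bases apart on chromosome 14. PSME3, which encodes the nuclear PA28 gamma, stood at 67.2 and 56.0 FPKM (0.26). PSME4, which encodes the nuclear activator PA200, had the largest positive difference of all 46 genes, at 32.6 FPKM in HuES53 and at 18.8 in HuES64 (1.70-fold, 0.76). With TPM scaling PSME4 passed 2-fold, at 1.02, and with a trend of GC content and length removed it was 0.36 by the median transcript and 0.42 by the longest. PSME4 has by far the longest transcripts of the set, at a median of 7099 bases, and like PSME1 it overlaps another gene in the table. The inhibitor gene PSMF1, at 23.8 and 24.5 FPKM, was level (-0.04).

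PSMG3 stood apart from all other proteasome genes. The PSMG genes encode chaperones that build the alpha ring, PSMG1 with PSMG2 and PSMG3 with PSMG4. PSMG3 stood at 36.7 FPKM in HuES53 and at 115 in HuES64, 3.08-fold lower in HuES53 (a difference of -1.62, with an estimated counting error of 0.066). A lower difference was found in 0.58% of all genes. TPM scaling gave -1.39, and removal of the trend described further on gave -1.31. Its partner PSMG4 stood at 32.1 and 50.4 FPKM (1.55-fold, -0.64, and -0.40 with TPM scaling), and overlaps another gene in the table. PSMG1 (63.5 and 56.4 FPKM, 0.17) and PSMG2 (83.6 and 90.7 FPKM, -0.12) differed little. The ratio of PSMG3 to its partner thus differed between the lines, while PSMG1 and PSMG2 stayed near each other.

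The neighbours of PSMG3 on chromosome 7 did not differ in the same measure. PSMG3 lies at 1606968 to 1609668 in the build of the deposited table, which is not named, and overlaps no other gene there. KIAA1908 lies 40 bases away toward higher coordinates and stood at 1.03 FPKM in HuES53 and at 1.25 in HuES64. MAFK (7.62 and 8.44 FPKM), 24288 bases to the other side, differed by -0.13, and INTS1 (25.3 and 26.8 FPKM), 62949 bases away, by -0.08. TMEM184A, 10901 bases away on the side of MAFK, was low, at 0.403 and 0.668 FPKM. MICALL2, 107858 bases away, stood at 2.87 and 4.45 FPKM (-0.49). These neighbours were taken by position.

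The difference moved with GC content and transcript length, among these genes as among all. Across the 46, Spearman's rho of the difference with the GC content of the transcripts was -0.62, and with their length 0.49. Across 11921 genes with a GENCODE transcript the rho values were -0.50 and 0.31. These describe genes that share both libraries. The 23 proteasome genes of higher GC content (median 52.6%) had a median of -0.31, with 21 lower in HuES53 (13 with TPM scaling). The 23 of lower GC content (median 44.3%) had a median of -0.02, with 12 lower (1 with TPM scaling). Of all genes 47.5% were lower as deposited and 28.0% with TPM scaling. All genes binned by GC content ran from a median of 0.32 at 38.7% to -0.30 at 64.5%. Their medians were 0.23 at 44.0% and 0.01 at 52.1%. The share lower among genes of like GC content was not tested. With the trend of both properties removed, by the median transcript of each gene, 30 of the 46 were lower in HuES53, against 44.5% of all genes, and all 14 core subunits were among them. At a mean of 50 FPKM or more 24 of 33 proteasome genes were lower this way, against 1140 of all 1920 such genes. With the longest transcript of each gene used in its place, 21 of the 46 were lower, against 43.9% of all genes, with 7 of the 14 core subunits among them. At 50 FPKM or more 14 of 33 proteasome genes were then lower, against 934 of all 1920. The alpha ring genes are poor in GC, with a median of 40.8%, and the beta ring genes stood at 51.8%.

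**Figure D3:**
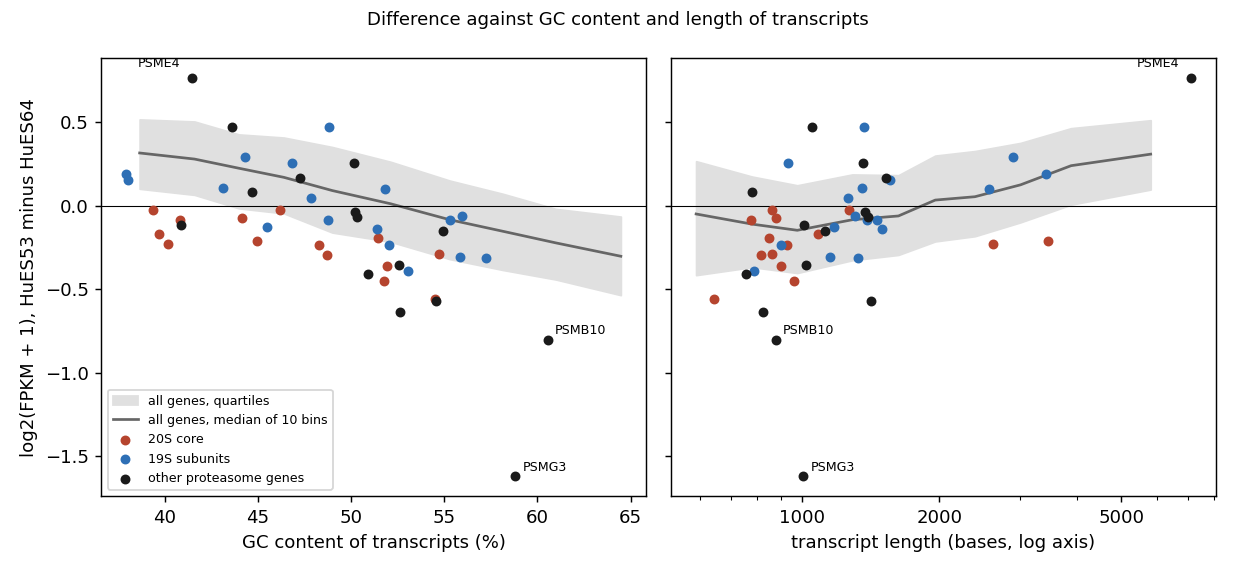
Difference in log2(FPKM + 1), HuES53 minus HuES64, against the GC content (left) and the length on a log axis (right) of GENCODE transcripts, for the 20S core (red), the 19S subunits (blue) and the other proteasome genes (black); the line and band give the median and quartiles of all genes in 10 bins. Proteasome genes follow the slope of all genes in both panels, with rho of -0.62 and 0.49, and PSMG3 lies far below the band.

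The core and the cap were set beside each other, since they meet in the complex. The 14 core genes had a median level of 231 FPKM in HuES53 and 280 FPKM in HuES64, and that of 17 cap genes 109 and 108 FPKM. The core median was thus 2.13 times the cap median in HuES53 and 2.59 times in HuES64. The median difference was -0.22 for the core and -0.06 for the cap, which puts the core 0.16 below the cap. TPM scaling adds a like amount to every gene and so cannot test this gap (-0.16 with it). The gap was -0.21 with the trend removed by the median transcript and -0.05 by the longest. Core genes are more highly expressed and have shorter transcripts than cap genes (medians of 890 and 1357 bases), and the part of these properties in the gap was not tested beyond the removal of the trend.

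Proteasome genes with other names were taken from a list of 9. ADRM1, a ubiquitin receptor of the cap, stood at 126 FPKM in HuES53 and at 145 in HuES64 (-0.20), and SHFM1, the older symbol of the small cap subunit SEM1, at 509 and 539 (-0.08). SHFM1 was higher than any gene of the PSM series in HuES53, and in HuES64 it came just after PSMB4. POMP, the chaperone of core maturation, stood at 128 and 153 FPKM (-0.26). With the deposited values genes of 3 proteins that bind the proteasome more loosely lay on the other side of 0. They were the deubiquitinase genes UCHL5 (24.2 and 14.7 FPKM, 0.68) and USP14 (29.9 and 22.6 FPKM, 0.39), and the ubiquitin ligase gene UBE3C (23.9 and 17.9 FPKM, 0.39). With TPM scaling ADRM1 (0.05) and SHFM1 (0.16) lay above 0 too, and POMP was at -0.01. With the trend removed by the median transcript, ADRM1 was at 0.26 and POMP at -0.39. UCHL5 was then at 0.56, USP14 at 0.32 and UBE3C at 0.26. PAAF1, a further assembly factor of the base, named after its value was seen, was lower in HuES53 (34.5 and 43.6 FPKM, -0.33). In all 4 of 9 were lower in HuES53, against 47.5% of all genes (2 with TPM scaling, against 28.0%). UCHL5 and UBE3C overlap other genes in the table.

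Genes around NFE2L1 were, for the most part, higher in HuES53. NFE2L1 stood at 94.6 FPKM in HuES53 and at 78.8 in HuES64 (0.26) and NFE2L2, a related factor of the oxidative stress response, at 27.6 and 20.9 (0.38). NFE2L3, of the same family, stood at 49.7 and 38.2 FPKM (0.37). DDI2, the protease that releases NFE2L1 from its membrane anchor, stood at 2.83 and 0.618 FPKM (1.24) and overlaps another gene. VCP, the segregase that extracts it, stood at 197 and 185 FPKM (0.09). BACH1, a repressor of NFE2L2 targets (9.78 and 5.85 FPKM, 0.65), and MAFF, a small partner of these factors (2.58 and 4.03 FPKM, -0.49) were the farthest apart of the other members. Of 12 genes 3 were lower in HuES53, against 47.5% of all genes, and with TPM scaling 1 was, against 28.0% of all genes. The median was 0.20.

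The ubiquitin side of the pathway had no common direction. Of the ubiquitin genes, UBB stood at 890 FPKM in HuES53 and at 1028 in HuES64 (-0.21) and RPS27A, which encodes ubiquitin joined to a ribosomal protein, at 525 and 663 (-0.33). UBA6, an activating enzyme gene, stood at 13.1 and 8.15 FPKM (0.62). The median of the 6 genes on the list was -0.08. Of these 6, 3 were lower in HuES53, against 47.5% of all genes (2 with TPM scaling, against 28.0%). RPS27A overlaps another gene in the table. Among 12 shuttle and segregase genes the median was 0.05, with 5 lower in HuES53 (1 with TPM scaling), against the same shares of all genes. Among these, RAD23B stood at 97.8 and 83.7 FPKM (0.22) and UBQLN1 at 65.2 and 47.7 (0.44).

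Complexes of like build gave a scale for these numbers. The COP9 signalosome and the translation factor eIF3 share the protein folds of the 19S lid, and CCT is a ring-shaped chaperonin. Medians were -0.17 for 9 signalosome genes, -0.20 for 13 eIF3 genes and -0.03 for 8 CCT genes, beside -0.22 for the 20S core and -0.06 for the 19S cap. Lower in HuES53 were 6 of 9, 10 of 13 and 5 of 8, against 47.5% of all genes and 68.2% of those at 50 FPKM or more. With TPM scaling 3, 6 and 2 were lower, against 28.0% of all genes and 871 of 2115 genes at 50 FPKM or more. With the trend removed by the median transcript 6, 12 and 6 were lower, beside all 14 core genes. That is against 44.5% of all genes and 1140 of 1920 genes at 50 FPKM or more. By the longest transcript 6, 9 and 5 were lower, beside 7 of the 14 core genes. The shares for comparison were 43.9% of all genes and 934 of 1920 genes at 50 FPKM or more. The largest differences in each were GPS1 (84.9 and 118 FPKM, -0.47), EIF3K (312 and 445 FPKM, -0.51) and CCT7 (309 and 434 FPKM, -0.49). With the deposited values EIF3K and EIF3G (223 and 308 FPKM, -0.46) differed about as much as PSMB3 and PSMB4. With the trend removed by the median transcript, EIF3K was at -0.33 and EIF3G at -0.10, beside -0.41 for PSMB3 and -0.31 for PSMB4. GPS1 was then at -0.06 and CCT7 at -0.38. No gene of these 3 complexes differed by 2-fold, against 3.86% of all genes tested, a share at which few would be met among so few genes.

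**Figure D4:**
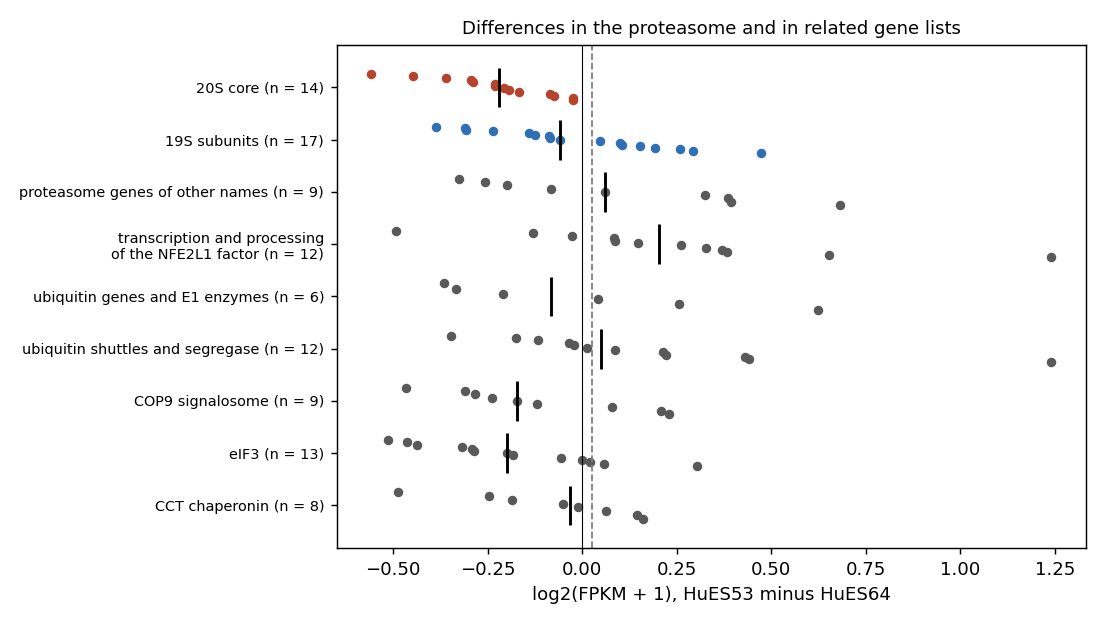
Difference in log2(FPKM + 1), HuES53 minus HuES64, for each gene of the 20S core (red), the 19S cap (blue) and 7 related lists (grey), with a black bar at each median and a dashed line at the median of all genes tested (0.03). The core spans -0.56 to -0.02 with no gene above 0 (9 of 14 above it with TPM scaling), and the signalosome, eIF3 and CCT lists lie on both sides. With the trend removed by the median transcript, 14 of 14 core and 12 of 13 eIF3 genes were lower in HuES53. By the longest transcript 7 of 14 and 9 of 13 were. Of all genes at 50 FPKM or more 1140 of 1920 were lower by the median transcript and 934 by the longest.

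Promoters of proteasome genes held several short motifs at their own frequencies. RefSeq windows in GRCh38.p14 were present for 42 of the 48 genes, 52 windows in all, and were searched on both strands. TGACNNNGC, the core of the element that NFE2L1 and NFE2L2 bind, was in 26.9% of these windows, against 14.2% of the windows of genes tested. Its stricter form TGACNNAGC was in 11.5% against 3.48%. CCGGAAG, the core of ETS factors, was in 32.7% against 16.2%, and AAGATGGC, a YY1 site, in 11.5% against 4.71%. CCAAT (40.4% against 34.2%) and the GC box GGGCGG (69.2% against 66.6%) were nearer to the share of all genes, and the E-box CACGTG was in 5.77% against 9.23%. GCCATTTT was in 3.85% against 2.20%, and the site of the nuclear respiratory factor in 3.85% against 1.87%. TGACGTCA, the heat shock element and the yeast proteasome element GGTGGCAAA were in none of the 52, against 2.79%, 0.336% and 0.197%. No test was made, and a match describes letters only.

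The 14 genes with TGACNNNGC did not differ in 1 direction. They were PSMA4, PSMB3, PSMC4, PSMC5, PSMD1, PSMD3, PSMD5, PSMD9, PSMD12, PSME1, PSME2, PSME4, PSMG1 and PSMG2, and they hold both PSMB3, with the lowest difference of the core (-0.56), and PSME4, with the highest of all (0.76). The windows of these 2 genes are shown with the motif in capitals, on either strand:
PSMB3, chr17:38752491-38752790, plus strand: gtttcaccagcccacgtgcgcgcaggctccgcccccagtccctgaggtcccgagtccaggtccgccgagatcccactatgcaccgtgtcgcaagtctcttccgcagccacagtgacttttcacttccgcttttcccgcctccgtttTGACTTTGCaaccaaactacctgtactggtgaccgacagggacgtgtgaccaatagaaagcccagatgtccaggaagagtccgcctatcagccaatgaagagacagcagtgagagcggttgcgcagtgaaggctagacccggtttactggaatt
PSME4, chr2:53970944-53971243, minus strand: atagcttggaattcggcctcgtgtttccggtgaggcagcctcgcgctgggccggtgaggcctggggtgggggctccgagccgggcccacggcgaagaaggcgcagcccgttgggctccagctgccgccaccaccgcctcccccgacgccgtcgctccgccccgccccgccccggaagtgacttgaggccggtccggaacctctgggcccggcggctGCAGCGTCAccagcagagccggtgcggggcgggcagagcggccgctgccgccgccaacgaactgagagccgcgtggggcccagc

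Close copies limit the values of some genes. GENCODE names 32 pseudogenes after 12 of the 48 genes, 13 of them after PSMC1, 4 after PSMA6 and 3 each after PSMA2 and PSMD10. How fragments shared with such copies were counted is not given in the sources used here. Of the 48 loci 14 overlap another gene. The 48 genes lie on many chromosomes, with 8 each on chromosomes 14 and 17.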

How the data were processed

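Per the labels, polyadenylated RNA was made into libraries with an Illumina TruSeq kit. TopHat2 2.0.4 and Cufflinks 2.0.2 are listed, with no roles, per the submitters' processing notes. The genome build, annotation and strand setting were not given in the sources used here. FPKM values were deposited for 25593 rows, without depths. Rows on chromosome Y were left out and repeated symbols summed. Loci count from 0, since 1259 of 1298 microRNA genes then have their RefSeq length, and are printed from 1. Differences, medians and counts were computed with pandas 2.3.3 and checked on simulated data with known folds. With 1 library per line and no counts, no test was made. Transcript length and GC content came from GENCODE release 29, matched for 11921 genes (86.4%) and all 46 proteasome genes above 1 FPKM; trends were removed as medians over 20 bins in 5 rounds. Every gene found by its symbol may be named; from other lists, the 3 highest, the 3 farthest apart and any 2-fold gene may be, with NFE2L1, NFE2L2, POMP, ADRM1 and SHFM1 always. Members and lists were chosen with earlier results of these data known. Alternatives were pseudocounts, filters, scalings, repeated symbols, trend removal and overlapping loci. One further symbol of the series and some genes of the other lists are not reported here.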

Additional observations from a re-analysis of the deposited data

How the results depend on the processing

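With TPM scaling the median difference of the proteasome genes was 0.12, in the opposite direction to the deposited values (-0.12), with 32 of 46 higher in HuES53 (13 with the deposited values) and 2 at least 2-fold different (1 with the deposited values). Of all 13790 genes tested 9929 were higher in HuES53 with TPM scaling and 7237 with the deposited values. As deposited 3.86% of all genes were at least 2-fold different. The scaling adds a like amount to every gene. With the trend of GC content and length removed by the longest transcript, chosen after seeing the data, the median was 0.017 and 25 were higher in HuES53; the cause was not tested. Among genes at a mean of 50 FPKM or more, also chosen later, 8 of 33 proteasome genes were higher, against 672 of all 2115, as fewer genes enter. The median stayed between -0.15 and -0.08, with 9 to 16 genes higher and 1 at least 2-fold different, under both smaller pseudocounts, both planned filters, the upper-quartile and median-of-ratios scalings, the highest row of a repeated symbol, the trend removed by the median transcript, overlapping loci left out (32 genes), and PSMC3IP left out. No paired analysis was possible because each line has 1 library.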
